A study of Mus musculus with 6 samples.

Results

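Genes of the purinergic P2 receptors were followed in embryonic mouse heart muscle cells after knockdown of DNA methyltransferase 1 (DNMT1). The 10 genes were P2rx1, P2rx3, P2rx4, P2rx5, P2rx6, P2rx7, P2ry1, P2ry2, P2ry6 and P2ry14, out of 43629 genes with a row in the count files, and each symbol was matched to 1 Ensembl gene. They were selected on a reading of this family's counts in these same samples, with the log2 fold changes between the treatments known, so the change of each P2 receptor gene between the treatments is a description and carries no test. A filter on low counts left 15470 genes, among them 9 of the 10 P2 receptor genes. P2ry14 was below it.

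Cells came from the ventricles of CD-1 mouse embryos at embryonic day 13.5, pooled by litter, and were grown for 48 h before transfection. Both groups received siRNA at 12 nM in the same transfection reagent. The control group received a negative control siRNA and the knockdown group a pool of 4 siRNAs against DNMT1, and each group had 3 samples. At 72 h after transfection the cells were released, sorted with magnetic beads for the surface protein VCAM1, and their poly(A) RNA was sequenced. The labels do not say whether the 3 samples of a group came from separate litters or cultures, so p values measure the spread between these samples, which may be technical. The titles of the knockdown samples name DNMT1 and their treatment tag names DNMT3a siRNA. Normalized counts of Dnmt1 were 3028 ± 367 in the control group and 741 ± 65.8 in the knockdown group (mean and SD, n = 3 each), a fall (log2 fold change -2.03, SE 0.11, adjusted p = 0.000192, edgeR's quasi-likelihood test), whereas the values of Dnmt3a (0.24, SE 0.08) and Dnmt3b (0.21, SE 0.17) were not past the limits. The samples are called DNMT1 siRNA here. Normalized counts are read counts scaled to a common library size, and a positive log2 fold change means more with DNMT1 siRNA.

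P2 receptors are cell surface receptors for extracellular nucleotides such as ATP, ADP and UDP, which cells release under stretch, injury or stimulation. P2X receptors are cation channels built of 3 subunits that ATP opens. P2Y receptors couple to G proteins, mostly to Gq and phospholipase C or to Gi. In the heart, ATP released with noradrenaline from sympathetic nerves and from the muscle cells themselves acts on both classes and can change calcium entry and contraction. Ectonucleotidases on the cell surface then break ATP down to adenosine, which has receptors of its own.

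DNMT1 copies methyl groups onto cytosines of CG dinucleotides when DNA is replicated, so the CG content of the gene starts is part of the background of these genes. DNA methylation was not analysed here. RefSeq (GRCm38.p6) gave promoter windows, from 250 bases before to 50 bases after a gene start, for 7 of the 10 genes, and none for P2rx3, P2rx5 and P2ry6. The search was for CG, which reads the same on both strands, and 94.57% of all 32817 windows of this length held it. The median window held 7 CGs, with quartiles of 3 and 20. P2rx1 had 7 CGs in its window, and 51.4% of all windows held as few or fewer. P2rx4 had 18 (72.0% of windows with as few or fewer), P2rx7 had 8 at its first start (54.2%), P2rx6 had 3 (31.4%) and P2ry1 had 25 (83.1%). P2ry2 held 28 and 30 in its 2 windows and P2ry14 held 1 to 4 in its 4 windows. Promoters of 3 genes are shown: P2rx1, which differed most between the treatments, P2rx4, whose level was nearly the same in both, and P2ry1, the tested gene whose DNMT1 siRNA samples all lay below the negative siRNA samples. The stretch shown is the part of the window before the first annotated transcript start, on the plus strand, with each CG in capitals. The P2rx1 stretch is chr11:72998895-72999055 with 4 CGs, the P2rx4 stretch chr5:122707294-122707517 with 7, and the P2ry1 stretch chr3:61002535-61002784 with 20.
P2rx1: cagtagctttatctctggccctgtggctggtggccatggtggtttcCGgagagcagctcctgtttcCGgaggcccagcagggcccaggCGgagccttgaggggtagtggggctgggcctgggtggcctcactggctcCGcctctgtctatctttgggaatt
P2rx4: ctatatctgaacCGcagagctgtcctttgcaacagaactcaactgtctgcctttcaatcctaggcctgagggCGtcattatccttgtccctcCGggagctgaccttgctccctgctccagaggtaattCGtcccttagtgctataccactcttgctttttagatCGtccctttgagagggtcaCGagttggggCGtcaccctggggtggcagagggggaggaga
P2ry1: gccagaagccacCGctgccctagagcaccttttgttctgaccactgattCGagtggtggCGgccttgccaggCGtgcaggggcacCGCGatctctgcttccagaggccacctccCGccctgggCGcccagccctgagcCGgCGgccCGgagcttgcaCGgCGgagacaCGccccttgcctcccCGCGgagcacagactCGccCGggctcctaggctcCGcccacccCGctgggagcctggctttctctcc
The 3 promoters describe the sequence only, and the number of genes is too small to set CG content against expression.

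Of the negative siRNA libraries, 27852412 to 35896018 reads lay on genes, and of the DNMT1 siRNA libraries, 13739561 to 16186310. Uniquely mapped reads outside annotated exons made up 14.6 to 17.5% with negative siRNA and 24.4 to 32.0% with DNMT1 siRNA. The part of this difference in the results below was not tested. Cardiomyocyte markers were present in every sample, with Tnnt2 (cardiac troponin T) at 16859 ± 2795 normalized counts with negative siRNA (SD, n = 3). Per length of exon, as reads per kilobase of exon and per 1e6 reads (RPKM), Tnnt2 stood at 100.2 in the negative siRNA samples. The highest cardiomyocyte marker was Myl7 (181.3), followed by Myh6 (110.8). The highest fibroblast and epicardial marker was Col1a1 (3542), and the highest smooth muscle marker Acta2 (1692). Msln (163.6) and Upk3b (159.4) of the former list and Tagln (1083) and Cald1 (150.1) of the latter were also above Tnnt2. The other genes of these 2 lists were below Tnnt2, at 78.6 (Tcf21) or less. In bulk RNA, fewer cells of a type and less RNA per cell cannot be told apart. Negative siRNA replicate 2 stood apart from the other two of its group on the second principal component (-37.1 against 24 and 18.4).

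In the negative siRNA samples P2rx4 and P2ry6 were the most abundant P2 receptor genes per length of exon, and P2rx1 was among the least. P2rx4, a widely expressed P2X channel, had 5.40 ± 0.40 RPKM (SD, n = 3), and P2ry6, the UDP receptor, had 4.58 ± 3.11. P2rx5 followed with 2.86 ± 0.297 and P2ry2, the receptor for ATP and UTP, with 1.81 ± 0.251. P2rx3 (0.897 ± 0.558), P2rx7 (0.887 ± 0.128) and P2ry1 (0.627 ± 0.0701) came next, and then P2rx1 (0.237 ± 0.00800) and P2rx6 (0.201 ± 0.0478). P2ry14 was last with 0.00820. Among neighbours in this order, P2rx4 and P2ry6, P2ry6 and P2rx5, P2rx3 and P2rx7, and P2rx1 and P2rx6 overlapped between samples. With DNMT1 siRNA the order was P2ry6, P2rx4, P2rx5, P2rx1, P2ry2, P2rx7, P2rx3, P2ry1, P2rx6 and P2ry14, and the samples of P2rx4 and P2rx5 and those of P2rx3 and P2ry1 overlapped. P2rx1 thus moved from place 8 to place 4. The length matters for this order. When the longest coding transcript was used in place of all exons, the mean of P2rx4 with negative siRNA was 14.03, because its exons span 7025 bases and that transcript 2702. P2rx4 was then first in both groups, and P2rx1 was in place 9 with negative siRNA and in place 5, behind P2ry2, with DNMT1 siRNA.

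**Figure D1:**
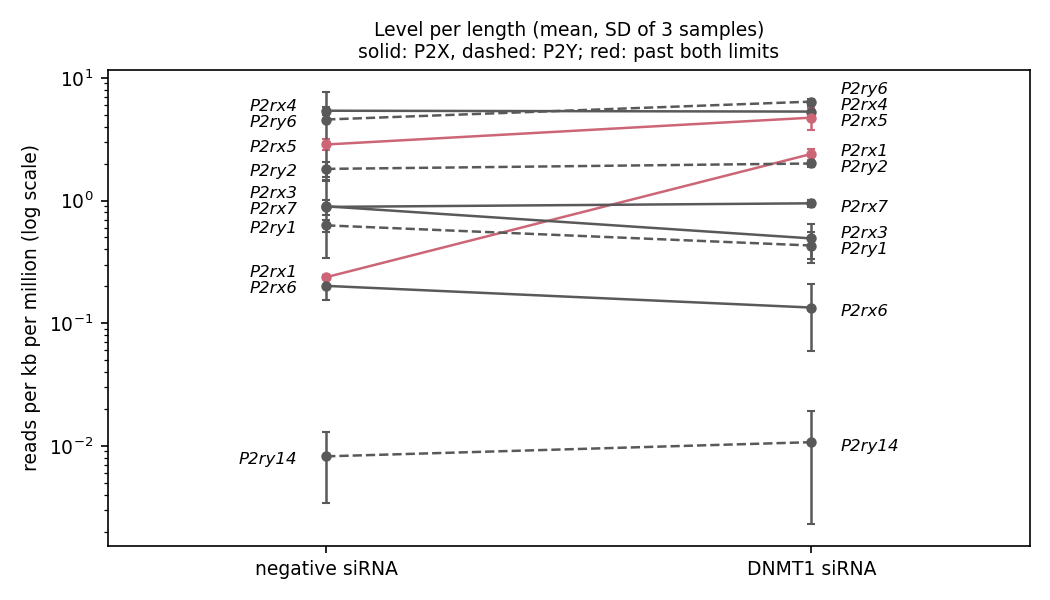
Reads per kilobase of exon, as RPKM (log scale), of the 10 P2 receptor genes with negative and DNMT1 siRNA. Points are means of 3 samples, bars are SD, solid lines are P2X genes, dashed lines P2Y genes, and red marks the genes past both limits. The P2rx1 line runs from 0.237 to 2.40 and crosses those of 4 other genes, while P2ry14 stays at the bottom.

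The make-up of the P2X transcripts differed between the treatments. P2rx1 made up 2.22 to 2.30% of the summed P2X level per length in the negative siRNA samples and 16.3 to 17.6% in the DNMT1 siRNA samples. The share of P2rx4 was 48.4 to 54.4% with negative siRNA and 37.0 to 39.1% with DNMT1 siRNA, although its own level was close to unchanged (5.40 against 5.31). P2rx5 made up 24.9 to 30.6% and 29.8 to 35.7%. The summed P2X level was 10.4 to 10.7 with negative siRNA and 12.1 to 15.4 with DNMT1 siRNA. With the length of all exons the 2 groups thus did not overlap. The summed P2Y level was 4.24 to 10.7 and 8.52 to 9.03. Shares add up to a fixed total, so a higher share of 1 gene lowers the others. The shares and sums above were taken with the length of all exons only, and they depend on it. The missing overlap of the P2X sums holds for that length. It does not hold for the longest coding transcript, with which P2rx4 weighs more. With the longest coding transcript, means with negative and DNMT1 siRNA were 0.250 and 2.53 for P2rx1, and 14.03 and 13.80 for P2rx4.

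Genes with an adjusted p (FDR) below 0.05 in edgeR's quasi-likelihood test over 15470 genes and a fold change over 1.5 were called. Of the 9 tested P2 receptor genes, 2 (P2rx1 and P2rx5) were past both limits on the higher side, 0 on the lower side and 7 were not past them. Over all genes tested, 6.49% were called, 4.26% higher and 2.23% lower. The median log2 fold change was 0.09 over the 9 genes and -0.0049 over all genes. In 5 of the 9 genes the log2 fold change was above 0 and in 4 below. The samples of the 2 groups did not overlap for 3 of the 9 genes (P2rx1, P2rx5 and P2ry1), beside 36.0% of all genes tested. Since the genes were chosen with this comparison known, nothing is read from these shares.

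**Figure D2:**
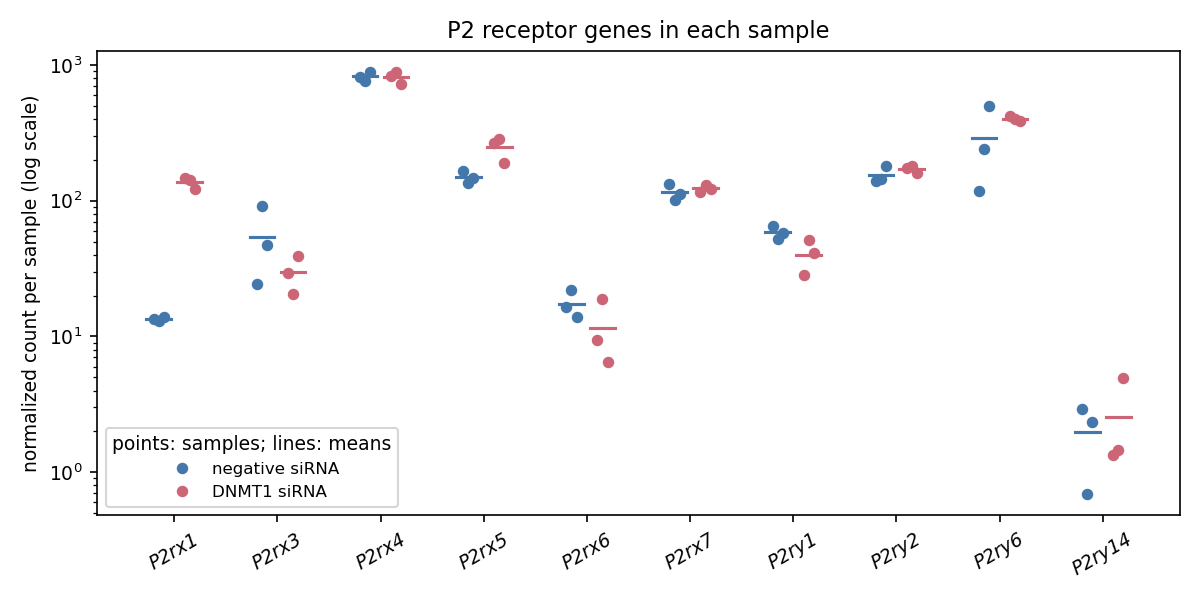
Normalized counts (log scale) of the 10 P2 receptor genes in each sample, with negative siRNA in blue and DNMT1 siRNA in red, and the means as lines. The 3 red P2rx1 points, at 121 to 146, lie far above the blue ones at 13.1 to 14, whereas the points of P2rx4, P2rx7 and P2ry2 overlap.

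P2rx1 (ENSMUSG00000020787, chr11:72999103-73015200, plus strand, GRCm38) was the P2 receptor gene that differed most. It encodes a rapidly desensitizing ATP-gated channel, best known from smooth muscle and platelets. The negative siRNA samples had 23, 19 and 18 reads, and the DNMT1 siRNA samples, with smaller libraries, had 109, 98 and 74. Normalized counts were 13.4, 13.1 and 14 with negative siRNA and 146.2, 142.8 and 121.0 with DNMT1 siRNA. All 3 DNMT1 siRNA samples were far above all 3 negative siRNA samples, and the spread within each group was small (SD 0.46 around 13.51 and 13.66 around 136.68). The log2 fold change was 3.33 (SE 0.20, 95% interval 2.88 to 3.78), a fold of 10.1 (interval 7.36 to 13.8), which is place 10 from the highest among the 15470 genes tested. Over 13 alternative analyses it lay between 3.26 and 3.42, which describes the same values and is no test. P2rx1 shares no exonic base with another annotated gene.

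Markers of cells known to carry P2rx1 were measured beside it. Of 5 tested platelet and megakaryocyte markers out of 11, 0 were called, and their summed level over the list was 860 to 1012 normalized counts with negative siRNA and 823 to 918 with DNMT1 siRNA. Most of that sum was Itgb3, an integrin subunit of platelets and other cells (811 ± 68.2 and 727 ± 30.4 in the same order, mean and SD of 3 samples). Gp1ba, a subunit of the von Willebrand factor receptor of platelets, had 27.5 ± 5.13 against 48.6 ± 4.76 (log2 fold change 0.83, SE 0.24, adjusted p = 0.0603, edgeR) with no overlap between the groups. Gp5 had a value of 0.50 (SE 0.43). Itga2b (-0.52, SE 0.28), Gp1bb (-0.30, SE 0.35) and Itgb3 (-0.16, SE 0.09) went the other way. The groups did not overlap for Itga2b either, with 68.7 ± 23.5 against 47.8 ± 6.62 normalized counts. The median over the tested platelet markers was -0.16. Reads of the platelet genes Pf4, Ppbp, Gp6, Gp9 and Tubb1 were between 0 and 4 in every library, and a count of 0 allows up to 3 reads. Of 8 smooth muscle markers, 0 were called, and their sum was 153275 to 214227 with negative siRNA and 129516 to 133520 with DNMT1 siRNA. Acta2, the smooth muscle actin and the most abundant of them, had a log2 fold change of -0.51 (SE 0.14). This was below the fold limit, which Acta2 passed (-0.60) without negative siRNA replicate 3. Mylk went the other way, with 2842 ± 274 against 3815 ± 227 normalized counts and no overlap. Its log2 fold change was 0.42 (SE 0.09), below the fold limit. Log2 fold changes of the list ran from -1.49 to 0.42, with a median of -0.47, and Mylk alone was above 0. Of 11 cardiomyocyte markers, 8 rose and 0 fell, beside 4.26% called higher over all genes tested. Their sum was 47622 to 60049 with negative siRNA and 98491 to 118223 with DNMT1 siRNA. Vcam1, whose protein was used for sorting, alone had a log2 fold change below 0 (-0.26, SE 0.11) and was not called. It had 6446 ± 999 against 5389 ± 106 normalized counts, without overlap. Tnnt2 rose (log2 fold change 0.61, SE 0.13, adjusted p = 0.0223, edgeR), a call kept in 2 of the 6 fits that left out 1 library (those without negative siRNA replicate 1 or 2) and lost with no filter on low counts. The part of the markers in the P2rx1 values was not tested.

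P2rx5 (ENSMUSG00000005950, chr11:73160421-73172685, plus strand) lies on the same chromosome, 145.2 kb downstream of P2rx1. It encodes an ATP-gated channel subunit known from muscle and nerve. Normalized counts were 165.1, 134.4 and 147.0 with negative siRNA and 265.5, 285.7 and 188.1 with DNMT1 siRNA. The groups did not overlap, but DNMT1 siRNA replicate 3 was nearer to the negative siRNA samples than the other two. The log2 fold change was 0.73 (SE 0.18, 95% interval 0.33 to 1.13), a fold of 1.66, and many genes differed more, as it stood in place 1067 of 15470. P2rx5 was past both limits in 3 of the 6 fits that left out 1 library. It was not without negative siRNA replicate 3 (0.72), without DNMT1 siRNA replicate 1 (0.65) or without DNMT1 siRNA replicate 2 (0.61).

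P2rx4 (ENSMUSG00000029470, chr5:122707544-122729738, plus strand), an ATP-gated channel with high calcium permeability that is found at the cell surface and in lysosomes, had the most reads of the P2X genes. Normalized counts were 816.4, 765.9 and 887.3 with negative siRNA and 820.7, 886.2 and 722.9 with DNMT1 siRNA. The groups overlapped throughout, with a log2 fold change of -0.02 (SE 0.10), and the 95% interval of -0.25 to 0.20 held no change as large as the fold limit in either direction.

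P2rx7 (ENSMUSG00000029468, chr5:122643911-122691432, plus strand), 16.1 kb upstream of P2rx4, is the channel that opens at high ATP and is linked to the inflammasome. Normalized counts were 133.0, 100.6 and 111.2 with negative siRNA and 116.7, 131.2 and 121.0 with DNMT1 siRNA. The groups overlapped, the log2 fold change was 0.09 (SE 0.16), and the 95% interval was -0.27 to 0.46. Of its 5970 exonic bases, 119 are shared with the microRNA gene Mir8115 on the same strand.

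P2rx3 and P2rx6 had few reads and wide errors. P2rx3 (ENSMUSG00000027071, chr2:84998583-85037462, minus strand) is known from sensory neurons. It had 24.5, 91.0 and 47.4 normalized counts with negative siRNA and 29.5, 20.4 and 39.3 with DNMT1 siRNA. The highest value was that of negative siRNA replicate 2, and the groups overlapped. Among the negative siRNA samples, that library also had the highest sums of the smooth muscle, fibroblast and epicardial, endothelial, cardiomyocyte and platelet lists. The sums of the neuronal (1641) and erythroid (11.0) lists were lowest in that library. Most of its neuronal sum was Tubb3 (1472), which was lowest there, as was Dbh (9.65). Prph of the neuronal list went the other way, with 35.0, 131.7 and 63.8 normalized counts in negative siRNA replicates 1, 2 and 3. The part of these lists in the P2rx3 value was not tested. The log2 fold change was -0.87 (SE 0.49, 95% interval -1.99 to 0.25), and it was -0.26 without that library. P2rx6 (ENSMUSG00000022758, chr16:17561885-17577800, plus strand), whose subunit forms channels mainly with other P2X subunits, had 16.3, 22.1 and 14 against 9.4, 18.9 and 6.5 normalized counts. These groups overlapped too, with a log2 fold change of -0.57 (SE 0.42, 95% interval -1.54 to 0.39). P2rx3 shares 51 of its 2789 exonic bases with Ssrp1 and P2rx6 shares 554 of 3995 with Slc7a4, each on the opposite strand, and the strand setting of the counting is not given in the sources used here.

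P2ry6 (ENSMUSG00000048779, chr7:100937630-100974649, minus strand) couples to Gq and had the widest spread of any P2 receptor gene in the control group. Normalized counts were 118.5, 241.3 and 500.8 with negative siRNA and 419.7, 396.5 and 387.6 with DNMT1 siRNA. The negative siRNA samples spanned a range of 4.23 times, while the DNMT1 siRNA samples were within 1.08 times of each other and inside that range. Their difference on the log2 scale was 0.49 (SE 0.42, 95% interval -0.47 to 1.46). It rested on negative siRNA replicate 1, the lowest sample, without which it was 0.12. Without negative siRNA replicate 3, the highest sample, it was 1.16 and past both limits. Macrophages also carry P2ry6. The summed macrophage markers were 408.5, 1123 and 1159 normalized counts in the 3 negative siRNA samples, in the same order of replicates, and 327 to 520 with DNMT1 siRNA. Of 11 macrophage markers tested of 12, 2 fell and 0 rose. These were Lyz2, lysozyme and the highest of them (log2 fold change -1.23, SE 0.33, adjusted p = 0.0476, edgeR), and C1qc, a complement subunit (-2.08, SE 0.56), both called in 1 of the 6 fits that left out 1 library, the one without negative siRNA replicate 1. Their part in the P2ry6 values was not tested.

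P2ry2 (ENSMUSG00000032860, chr7:100996568-101012866, minus strand) lies 21.9 kb from P2ry6 and couples to Gq as well. Normalized counts were 139.5, 144.8 and 178.9 with negative siRNA and 173.0, 179.3 and 160.3 with DNMT1 siRNA. The groups overlapped, the log2 fold change was 0.15 (SE 0.14), and the 95% interval was -0.18 to 0.48.

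P2ry1 (ENSMUSG00000027765, chr3:61002795-61008982, plus strand) is a Gq-coupled receptor for ADP. Normalized counts were 65.4, 52.4 and 57.5 with negative siRNA and 28.2, 51.0 and 40.9 with DNMT1 siRNA. The 3 DNMT1 siRNA samples lay below the 3 negative siRNA samples, but the highest of them nearly reached the lowest negative siRNA sample. The log2 fold change was -0.55 (SE 0.26, 95% interval -1.14 to 0.04), not past the limits. P2ry1 shares 992 of its 4291 exonic bases with Gm37035 on the opposite strand.

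P2ry14 (ENSMUSG00000036381, chr3:59113855-59153618, minus strand), the receptor for UDP-glucose, had 5, 1 and 3 reads with negative siRNA and 1, 1 and 3 with DNMT1 siRNA. With 14 reads in all, a difference was not detectable at this depth. Of 6 further genes, taken by their P2rx or P2ry symbols, 5 were also below the filter. P2rx2 had 7 reads in all 6 libraries, P2ry4 had 9, P2ry10 had 2, P2ry12 had 11 and P2ry13 had 21, of which 18 were in the negative siRNA libraries. P2ry10b was the only one of these 6 genes to pass the filter, with 16.3, 11.0 and 28.8 normalized counts against 17.4, 26.2 and 34.3 (log2 fold change 0.47, SE 0.42, adjusted p = 0.497, edgeR).

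**Figure D3:**
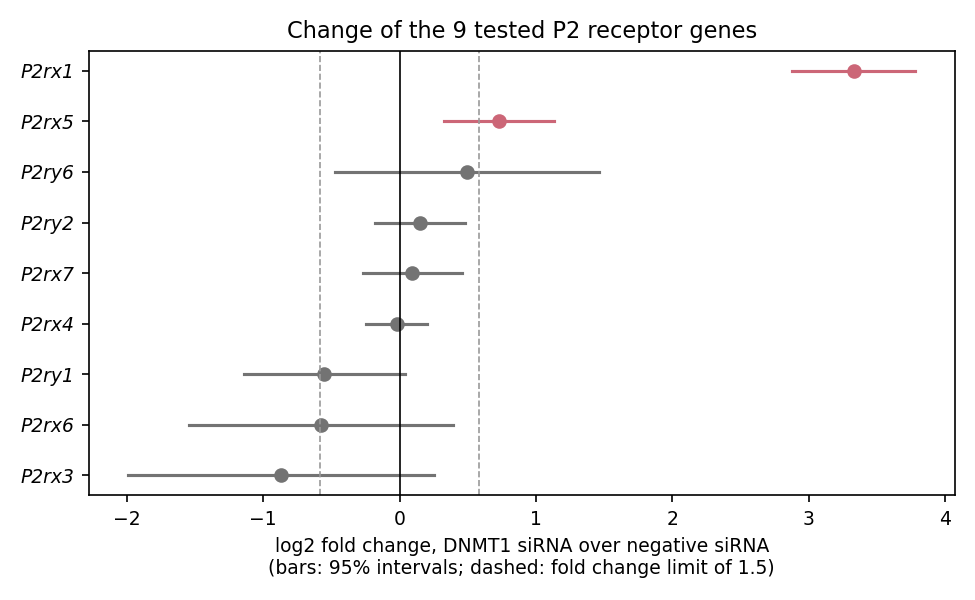
Log2 fold change of the 9 tested P2 receptor genes, DNMT1 siRNA over negative siRNA, with 95% intervals. Dashed lines mark the fold limit of 1.5, and red marks the genes past both limits. P2rx1 at 3.33 stands clear of all others, P2rx5 lies at 0.73, and the intervals of the other genes include 0.

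Genes around the receptors were looked at because P2rx1 with P2rx5, P2rx7 with P2rx4, and P2ry6 with P2ry2 are neighbours on a chromosome. Within 250 kb of the 10 genes lay 93 other genes, of which 44 were tested, 3 rose and 1 fell (9.09%, against 6.49% of all genes tested). Around P2rx1, 0 of the 12 other tested genes was called. The 4 tested genes between P2rx1 and P2rx5 were not past the limits. Camkk1, a kinase activated by calcium and calmodulin, had a log2 fold change of -0.26 (SE 0.15), Ncbp3, a cap-binding protein, 0.07 (SE 0.07) and Haspin, a histone kinase of mitosis, -0.01 (SE 0.13). Itgae, an integrin subunit of lymphocytes, had 5.1 against 13.4 normalized counts (log2 fold change 1.39, SE 0.58, adjusted p = 0.155, edgeR), with few reads and a wide error. The Itgae samples did not overlap, with 4.7, 1.4 and 9.3 normalized counts with negative siRNA and 10.7, 13.1 and 16.4 with DNMT1 siRNA. Since P2rx1 and P2rx5 were chosen with this comparison known, nothing is read from setting them beside the genes between them. The noncoding RNA gene 4732414G09Rik, also between P2rx1 and P2rx5, was below the filter with 28 reads in all. It had 1.8, 2.1 and 2.3 normalized counts with negative siRNA and 6.7, 16.0 and 4.9 with DNMT1 siRNA.

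**Figure D4:**
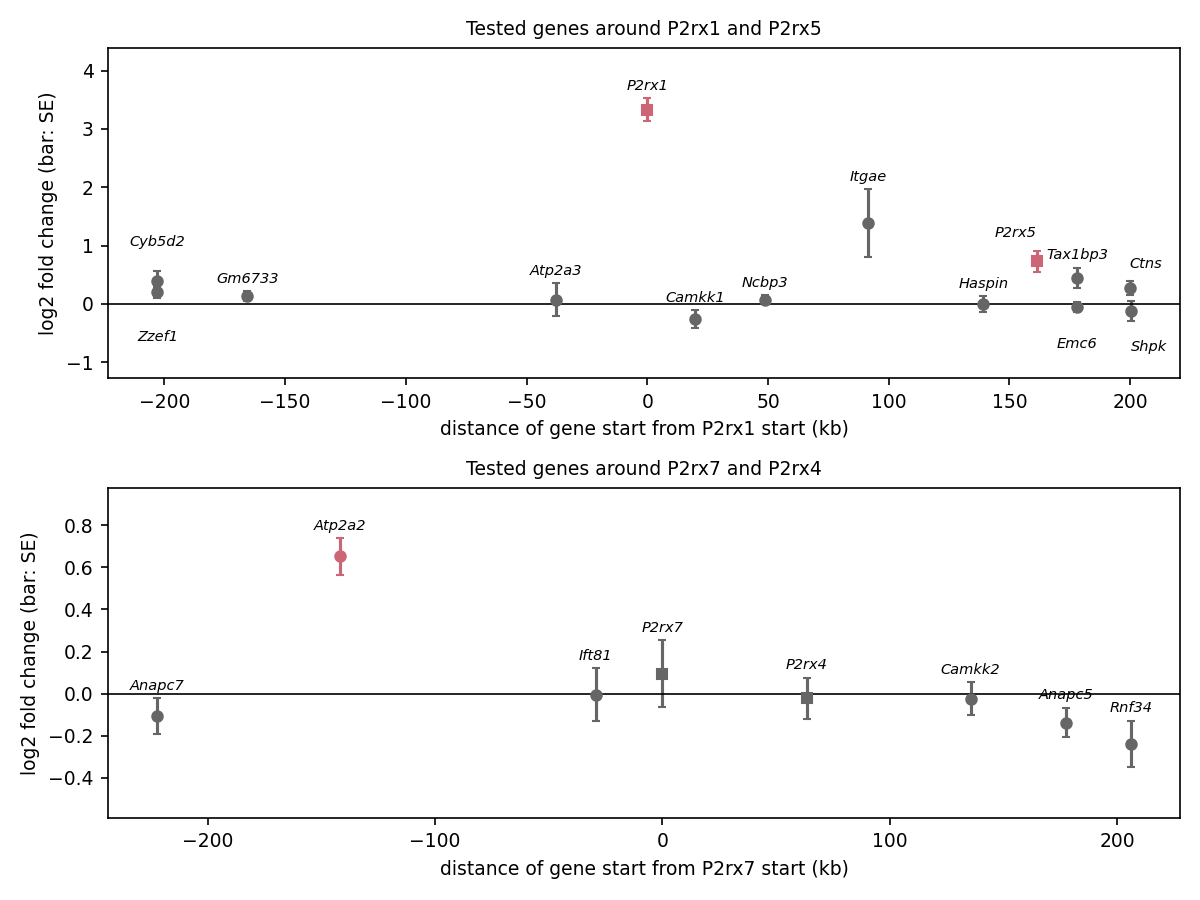
Log2 fold change (points, with SE as bars) of tested genes by the distance of their start from that of P2rx1 (upper) or P2rx7 (lower), in kb. Squares are P2 receptor genes and red marks genes past both limits. In the upper plot P2rx1 and P2rx5 are the only red points, and in the lower one Atp2a2 is.

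The other pairs of receptor genes had 1 called neighbour. Atp2a2, the calcium pump of the sarcoplasmic reticulum, lies 141.7 kb from P2rx7 and rose, with 16047 ± 1295 against 25213 ± 1595 normalized counts (mean and SD of 3 samples each, log2 fold change 0.65, SE 0.09, adjusted p = 0.00354, edgeR), a call lost without DNMT1 siRNA replicate 1 (0.58). Near P2ry6 and P2ry2, 0 of 3 tested genes were called for either. Near P2rx6, Serpind1, an inhibitor of thrombin, rose from 8.0 to 21.4 (log2 fold change 1.41, SE 0.37, adjusted p = 0.0427), and near P2rx3, Rtn4rl2, a Nogo receptor relative, fell from 185.7 to 87.2 (log2 fold change -1.08, SE 0.29, adjusted p = 0.0476, edgeR). Each of these was called in 1 of the 6 fits that left out 1 library, the one without negative siRNA replicate 1, and Serpind1 was not called with DESeq2. Near P2ry14, Med12l, a relative of a Mediator subunit, rose from 115.9 to 179.9 (log2 fold change 0.64, SE 0.13, adjusted p = 0.0191, edgeR), a call lost when any 1 DNMT1 siRNA library was left out (0.62, 0.59 and 0.65).

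The 5 genes whose pattern over the 6 samples was most like that of P2rx1 were Cyp1a1, Rn7sk, Pnpla3, Col4a4 and Nppb. Likeness was the Euclidean distance between log2 CPM values (counts scaled to library size, prior count 2) centred on each gene's mean, with a median of 3.91 over all genes tested. The distances were 0.720 for Cyp1a1, a drug-metabolizing P450, 0.722 for Rn7sk, the 7SK small nuclear RNA, 0.756 for Pnpla3, a lipase, 0.768 for Col4a4, a basement membrane collagen chain, and 0.795 for Nppb, the B-type natriuretic peptide. Cyp1a1 had 0, 0.7 and 0 normalized counts with negative siRNA and 13.4, 11.7 and 16.4 with DNMT1 siRNA. At such low counts the distance depends on the prior count. The fitted log2 fold change of Cyp1a1 was 5.35 (SE 0.71), against 3.33 for P2rx1. Nppb had 122.0, 162.0 and 171.1 against 1084.8, 954.7 and 758.9. All 5 were far higher in each DNMT1 siRNA sample than in any negative siRNA sample, as the way of choosing them required.

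Genes that act before and after the P2 receptors were taken from 5 lists. Of 60 listed genes 48 were tested, 7 rose and 2 fell, and the median log2 fold change was 0.07. The share called was 18.75%, against 6.49% of all genes tested. Since the lists were chosen with earlier results of these data known, nothing is read from that share. The genes that rose belong to nucleotide release, ectonucleotidases, adenosine receptors and effectors.

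Of 12 tested genes of nucleotide release, 2 rose and 0 fell (median 0.17). Gja1, connexin 43, the main gap junction protein of the ventricle whose hemichannels can pass ATP, had 4354, 4339 and 4646 normalized counts with negative siRNA and 8009, 7418 and 7376 with DNMT1 siRNA. All DNMT1 siRNA samples were above all negative siRNA samples (log2 fold change 0.77, SE 0.07, adjusted p = 0.000837, edgeR). Gja5, connexin 40 of the atria and conduction system, rose from 23.9 ± 4.24 to 57.8 ± 18.7 (SD, n = 3 each, log2 fold change 1.28, SE 0.30, adjusted p = 0.0292, edgeR). That call was kept in 1 of the 6 fits that left out 1 library, the one without negative siRNA replicate 2, with log2 fold changes between 0.99 and 1.44. The most abundant genes not called were Lrrc8c, a subunit of volume-regulated anion channels (0.36, SE 0.09), and Gjc1, connexin 45 (0.14, SE 0.09).

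Of 7 tested ectonucleotidases, 2 rose and 0 fell (median 0.12). Nt5e, CD73, which makes adenosine from AMP outside the cell, had 806.5, 615.6 and 749.6 normalized counts with negative siRNA and 1442.8, 1559.7 and 1344.4 with DNMT1 siRNA (log2 fold change 1.00, SE 0.11, adjusted p = 0.00196, edgeR). Alpl, the tissue-nonspecific alkaline phosphatase, had 13.4, 10.3 and 14.8 against 44.2, 45.2 and 50.7 (log2 fold change 1.85, SE 0.26, adjusted p = 0.00442, edgeR). For both the groups were far apart and the call was kept in each of the 6 fits that left out 1 library. Entpd1, CD39, which breaks down ATP and ADP, had 56.6, 131.0 and 56.0 against 167.6, 156.0 and 143.9 (log2 fold change 0.94, SE 0.33, adjusted p = 0.0971, edgeR), and passed both limits with DESeq2 (0.92), with no filter on low counts (0.91) and without negative siRNA replicate 2 (1.47). Enpp1, which makes AMP and pyrophosphate from ATP, had a log2 fold change of 0.12 (SE 0.15).

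Of 9 tested genes of adenosine receptors, transport and clearance, 1 rose and 2 fell (median -0.14). Adora1, the Gi-coupled A1 receptor, had 32.1, 42.1 and 33.4 normalized counts with negative siRNA and 120.7, 78.7 and 67.1 with DNMT1 siRNA (log2 fold change 1.31, SE 0.27, adjusted p = 0.0186, edgeR). This call was lost without DNMT1 siRNA replicate 1 (1.00) or 2 (1.39). Adora2b, the low-affinity Gs-coupled receptor, had 110.9, 147.5 and 143.1 against 55.0, 65.6 and 58.9 and fell (log2 fold change -1.16, SE 0.18, adjusted p = 0.00681, edgeR), in each of the 6 fits as well. Ada, adenosine deaminase, went from 199 ± 73.0 to 98.2 ± 10.5 (SD, n = 3 each, log2 fold change -1.02, SE 0.27, adjusted p = 0.0471, edgeR), a call kept in 1 of the 6 fits, the one without negative siRNA replicate 2, with log2 fold changes between -1.26 and -0.75. The most abundant genes not called were Adk, adenosine kinase (-0.14, SE 0.08), and Slc29a1, the nucleoside transporter ENT1 (0.08, SE 0.08).

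Of 16 G proteins, phospholipases C and IP3 receptors, all tested, 2 rose and 0 fell (median 0.11). Itpr2, the type 2 IP3 receptor of heart muscle, rose, with 555 ± 69.2 against 887 ± 68.5 normalized counts (mean and SD of 3 samples each, log2 fold change 0.68, SE 0.11, adjusted p = 0.00786, edgeR), a call lost without DNMT1 siRNA replicate 2 (0.65) or 3 (0.62). Plcb1, a phospholipase C driven by Gq, rose from 110 ± 17.0 to 173 ± 20.8 (log2 fold change 0.65, SE 0.17, adjusted p = 0.0402, edgeR), a call kept in 1 of the 6 fits, the one without negative siRNA replicate 3, with log2 fold changes between 0.54 and 0.75. Itpr1, the type 1 IP3 receptor (log2 fold change 0.55, SE 0.07, adjusted p = 0.00319, edgeR), missed the fold limit by little, which it passed without negative siRNA replicate 3 (0.59). Gnai2, the most abundant G protein gene of the list, had -0.04 (SE 0.06).

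Of 7 genes of the inflammasome that P2X7 is linked to, 4 were tested and 0 were called (median 0.17). Nek7, a kinase that binds NLRP3, had a log2 fold change of -0.05 (SE 0.08), and Gsdmd, the pore-forming gasdermin D, of -0.13 (SE 0.12). Nlrp3, Casp1 and Il1b had 26, 16 and 4 reads in all 6 libraries and were below the filter.

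**Figure D5:**
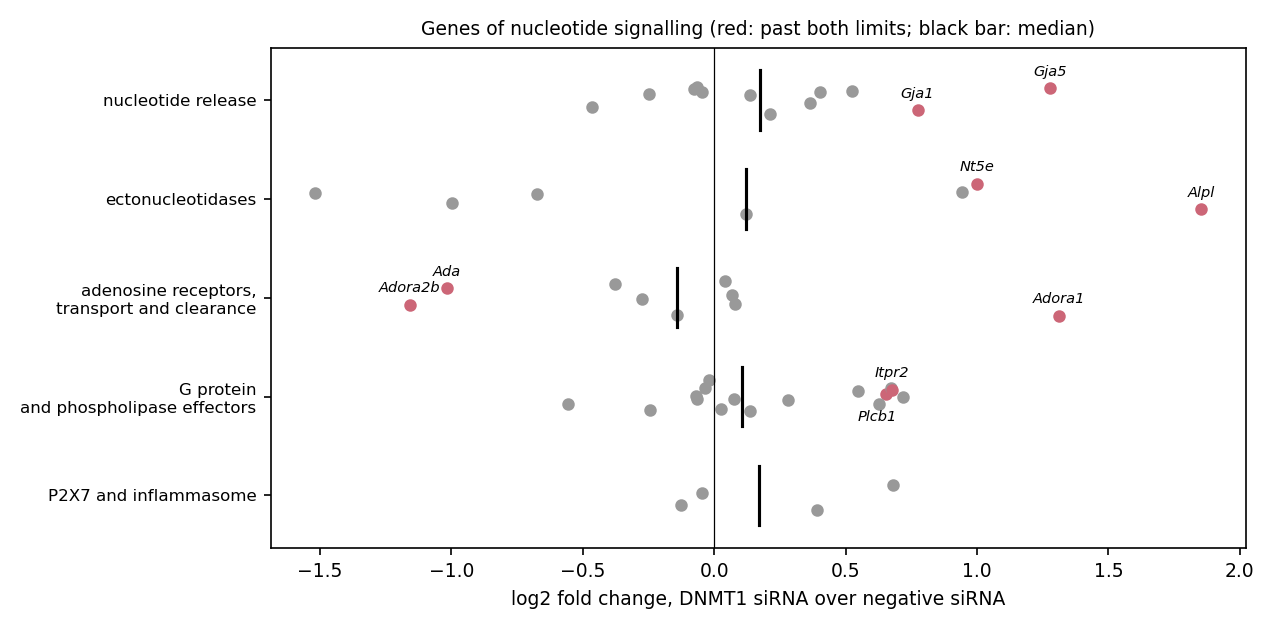
Log2 fold change of the tested genes of 5 lists around the P2 receptors, DNMT1 siRNA over negative siRNA, 1 point a gene, with the list median as a black bar. Red marks genes past both limits. The medians lie between -0.14 and 0.17, and the called genes stand at both ends of the adenosine list but only on the right in the other lists with calls.

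The remaining marker lists give the cells that the sorted samples could hold beside heart muscle. Of 10 fibroblast and epicardial markers 3 fell (Col1a1, Dcn and Dpt) and 0 rose, and their sum was 471415 to 696053 with negative siRNA and 352918 to 368518 with DNMT1 siRNA. Of 8 endothelial markers 2 rose (Kdr and Emcn) and 0 fell, with sums of 1413 to 2383 and 2241 to 2643. Of 4 tested neural crest and neuronal markers of 9, 1 rose (Dbh), with sums of 1641 to 2785 and 1722 to 1851. Of 7 erythroid markers 1 was tested and was not called, with sums of 11.0 to 28.0 and 26.8 to 62.7. The 6 calls of these lists were each kept in 1 to 3 of the 6 fits that left out 1 library, and were lost without DNMT1 siRNA replicate 2 or 3. Tek, the highest endothelial gene (-0.35, SE 0.09), Tubb3, the highest neuronal one (-0.34, SE 0.20), and Alas2, the tested erythroid one (1.23, SE 0.41), were not past both limits, but Alas2 passed them in 3 of 13 alternatives, namely with edgeR's exact test, with no filter on low counts and without negative siRNA replicate 3 (1.64). Their part in the P2 receptor values was not tested.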

How the data were processed

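RNA-Seq was done on 3 negative siRNA and 3 DNMT1 siRNA samples. The authors checked reads with FastQC, used TopHat2 for mapping to mm10 and HTSeq for counting on Ensembl genes, and deposited the raw counts with no scaling. Rows of reads outside exons (14.6 to 32.0% of uniquely mapped reads) or on more than 1 gene (3.58 to 6.35%) were left out of library sizes. A limit on a count of 0 covers counting error only. Replicate pairs of a group differed in a chi-square test of their counts (2.7 to 54.46 per degree of freedom), so no library was a copy.

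The P2 receptor genes, gene lists and tests were chosen with earlier results of these data known. The tests were run with edgeR 4.0.16 in R 4.3.3 (TMM, filterByExpr with minimum count 10 and total 15, quasi-likelihood test, Benjamini-Hochberg adjustment over 15470 genes) and in Python 3.11.15 with pandas 2.3.3. Genes with an FDR below 0.05 and a fold change above 1.5, the study's limits, were called. The SE was obtained from the fold change and the F statistic of each gene. The code was tested on simulated data. Levels per length used the exons of a GENCODE annotation of GRCm38 (M21), which placed 42462 of the 43629 genes, and coordinates are from it. Named genes were the family, in each pathway list the called genes (at most 4, by change) and the 2 most abundant not called, called neighbours within 250 kb and those between P2 receptor genes, the 5 genes most like P2rx1, the DNA methyltransferases and the highest gene of each marker list. Further marker genes, and Nlrp3, Casp1 and Il1b, were named after their values were seen. Alternatives were DESeq2 1.42.0, edgeR's exact test, RLE normalization, no filter, a replicate block, leaving out each library, no fold limit, the longest coding transcript as length and a single DNMT1 siRNA library, the last of these and the transcript length chosen after the data were seen.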

Additional observations from a re-analysis of the deposited data

Results flagged for a closer look

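Some reads that no comparison used differed between the treatments. Uniquely mapped reads outside annotated exons made up 29.28% on average with DNMT1 siRNA and 16.4% with negative siRNA (SD 4.23 and 1.58, n = 3 each), and each DNMT1 siRNA library was above each negative siRNA library. Uniquely mapped reads on more than 1 gene made up 6.15% and 3.62%, again without overlap. Their part in the P2 receptor values was not tested.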

How the results depend on the processing

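Over the 13 alternatives run, the log2 fold change of P2rx1 was 3.26 to 3.42, and P2rx5 was past both limits in 8. The 8 include the main fit without a fold limit, whose values could not differ from the main ones. Without 1 library the number of P2 receptor genes called higher was 1 to 2 and lower 0 to 0, P2rx5 ranged from 0.61 to 0.87, P2rx4 from -0.095 to 0.036 (0.035 without negative siRNA replicate 3 and 0.036 without DNMT1 siRNA replicate 3) and P2ry6 from 0.12 to 1.16. All genes called ranged from 255 to 823 higher and 112 to 472 lower, pathway genes from 3 to 7 and 1 to 3, and neighbours from 0 to 3 and 0 to 2. Enpp1 (-0.022, range to 0.29), Nek7 (0.032, range from -0.10) and Haspin (0.085, range from -0.073) turned direction without negative siRNA replicate 1, as did Haspin without DNMT1 siRNA replicate 1 (0.053). Without a filter, 994 genes were higher and 701 lower, 4 pathway genes were lower, and P2rx3 was called (-0.90). Over the 31775 genes then fitted the median log2 fold change was 0.11, and 0.14 with DESeq2, against -0.0049. Without a fold limit, 1054 were higher and 874 lower, with 4 pathway genes and 2 neighbours lower. With replicate 1 as the only DNMT1 siRNA library, whose spread was taken to be that of the negative siRNA samples, 12 genes were higher and 3 lower. P2rx1 was the 1 P2 receptor gene called (P2rx5 0.83), with 0 pathway genes and 0 neighbours called, with fewer samples by construction. With the longest coding transcript as length, the negative siRNA means were 0.250 for P2rx1, 14.03 for P2rx4, 0.343 for P2rx6, 1.07 for P2rx7, 2.36 for P2ry2 and 0.0368 for P2ry14.

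Samples of equal number did not deviate together (r = 0.0064, -0.0208 and 0.0274), so the numbers were not taken as pairs. With a replicate block, 513 genes were higher and 285 lower, with 1 P2 receptor gene (P2rx1, while P2rx5 had 0.72), 1 pathway gene lower, and 1 neighbour higher and 0 lower. Ada, Plcb1, Rtn4rl2, Serpind1, Med12l, Col1a1, Dpt, Kdr and Dbh were not called with it. The causes of these shifts were not tested. P2ry14 and 5 further genes with P2rx or P2ry symbols were too shallow for any fold.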
